A study of Mus musculus with 3 samples.

Results

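Fibroblasts made up a small share of the non-immune cells of these tumor-bearing mouse brains, 190 of the 6676 CD45- cells that passed the cell filters. A cell was counted as a fibroblast when it held at least 4 unique molecular identifiers (UMIs, each marking 1 captured mRNA) of Col1a1, Col1a2, Dcn and Lum together, at most 2 UMIs of the endothelial genes Cldn5, Flt1, Cdh5 and Pecam1 together, and none of hsEGFR, the human EGFR transgene, or iCre, the recombinase that starts the tumor. The cell filters asked for at least 500 UMIs, at least 500 genes and at most 20% mitochondrial UMIs, and kept 6676 of 9091 CD45- cells in a table of 20811 cells. The cells were thus selected on their measured UMIs of Col1a1, Col1a2, Dcn and Lum, and the levels of these genes and of the genes that accompany them describe the fibroblasts and do not test them.

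The animals carried a conditional human EGFR transgene, a conditional luciferase and Cdkn2a-/- on a mixed background, and tumors were started by a Cre lentivirus injected into the striatum. All groups share these alleles and the injection, and there was no tumor-free group. Brains without cerebellum were dissociated after perfusion, freed of myelin, sorted by CD45, a leukocyte surface protein, and encapsulated on the inDrop droplet platform. The early, medium and large (also labelled late) stages each came from 1 tumor sample, measured in 4 CD45- libraries per stage over 3 sequencing runs, and the early material may pool up to 2 samples. The animals' ages were not analysed here. Libraries of a stage are technical repeats, so a difference between stages and a difference between animals cannot be told apart, and no test was made between stages. Xist, transcribed from the inactive X chromosome of female cells, stood at 119 CPM (the UMIs of a gene scaled to the group's total) in early fibroblasts and was at 0 in the medium and large ones.

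In the brain, fibroblasts lie in the meninges, in the stroma of the choroid plexus and along the larger vessels, outside the vessel wall. They build the fibrous collagen scaffold of these compartments and share with endothelial and mural cells the making of basement membranes. Meningeal fibroblasts are also known as a source of retinoic acid and of secreted factors that act on neighboring cells.

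Most of the 190 cells carried mesenchymal genes that the rule did not read. At least 1 UMI of 17 mesenchymal transcription factors, among them Foxc1, Foxd1, Zic1 and Prrx2, was found in 93.1% of early, 90.2% of medium and 86.5% of large fibroblasts. The same was true of 24.2%, 37.4% and 39.1% of the other kept CD45- cells, with median depths of 2258, 2989 and 3017 UMIs beside the fibroblasts' 3175, 4071 and 2692. In the collagen-positive cells with a transgene UMI, which the rule keeps out, it was true of 54.3% in the medium and 65.3% in the large stage, at median depths of 8010 and 10590 UMIs. Among fibroblasts split by Slc47a1 and a set of genes led by Aldh1a2, the share was 100% of the cells with Slc47a1 alone in every stage, 76.5% of the 17 early cells with the set alone and 63.2% of the 19 large cells with neither, whose median depth was 1730 UMIs and whose share was not above that of the large transgene cells. At the edge of the rule, Mgp was seen in 63.2% of the 19 fibroblasts with a sum of exactly 4 and in 61.9% of the 21 cells just outside, with a sum of 3. For Serping1 these shares were 36.8% and 33.3%, and for Ttr, a choroid plexus gene, 42.1% and 38.1%. Mbp, a myelin gene of oligodendrocytes, was seen in 33.3% of cells at a sum of 3, in 10.5% at 4, in 35.7% at 5 and in 22.1% over sums of 4 to 9. Of the 190 fibroblasts, 68 had a sum of 4 to 9 and 122 a sum of at least 10. The 68 were 38 early, 12 medium and 18 large fibroblasts, and the median sum was 11, 24 and 18 by stage.

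Markers of other cell types were present in some fibroblasts and are given beside the results they touch. At least 4 UMIs of mural (Vtn not counted), choroid plexus, oligodendrocyte, or oligodendrocyte progenitor or glioma markers were found in 28 fibroblasts, 17 early, 6 medium and 5 large, and these are the cells left out below wherever other types' markers are named. With Vtn counted, 42 fibroblasts held at least 2 UMIs of the mural list and 17 at least 10. Astrocyte and Schwann cell markers were not part of that tally. The astrocyte list had at least 2 UMIs in 138 fibroblasts and at least 10 in 57, and its sum was 2098, 2276 and 2113 CPM by stage against 1095, 1496 and 1097 CPM in the other CD45- cells. Of this list the gap junction gene Gja1 had 792 UMIs in 105 fibroblasts, while Aqp4 and Gfap had 1 and 6 UMIs. The Schwann or olfactory ensheathing list had at least 10 UMIs in 15 fibroblasts, with 3639, 1749 and 974 CPM by stage against 25310, 16390 and 13100 CPM in the other cells. The part of both lists in the results was not tested. The summed choroid plexus markers, led by Ttr, fell in the range 275 to 38190 CPM over the early libraries, 153 to 81470 CPM over the medium ones and 75.9 to 222 CPM over the large ones. The summed oligodendrocyte markers were 4909, 1934 and 799 CPM in early, medium and large fibroblasts, against 35780, 25540 and 19050 CPM in the other CD45- cells. Ptprc, which encodes CD45, was at or under 7.59 CPM in every stage. The microglia or macrophage list that holds Ptprc summed to 579, 114 and 295 CPM by stage, against 2115, 1344 and 233 CPM in the other CD45- cells. This list had at least 2 UMIs in 41 fibroblasts and at least 10 in 2. It was not part of the tally of 28 either, and its part in the results was not tested. Of 190 fibroblasts, 16 had a cell barcode that also occurred in another library of the same run.

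The share of fibroblasts was 3.15% of kept CD45- cells in the early stage (87 of 2760, exact Clopper-Pearson 95% interval 2.53 to 3.87%), 3.15% in the medium stage (51 of 1617, 2.36 to 4.13%) and 2.26% in the large stage (52 of 2299, 1.69 to 2.96%). Single libraries ranged from 1.89 to 3.73%, from 1.95 to 4.15% and from 1.61 to 2.77%. The libraries of the 3 stages overlapped, and the intervals, which cover counting error only, overlapped as well. The plot of the share by stage shows each library beside the summed value. The order of the stages depended on depth and on the gate: thinned to 1000 UMIs per cell the shares were 1.79%, 2.35% and 1.86%, and with a rule sum of at least 10 they were 1.78%, 2.41% and 1.48%. The gate on the transgenes took out cells almost only in the later stages: among the 351 kept cells with a rule sum of at least 4, a transgene UMI was found in 1 early, 36 medium and 98 large cells. The other CD45- cells held 7.46, 734 and 1241 CPM of hsEGFR by stage, so in the early stage the gate had little transgene to read. Whether some of the 190 cells are tumor cells whose transgene was not captured was not tested. A share of CD45- cells also moves with the number of tumor cells in the sort.

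**Figure D1:**
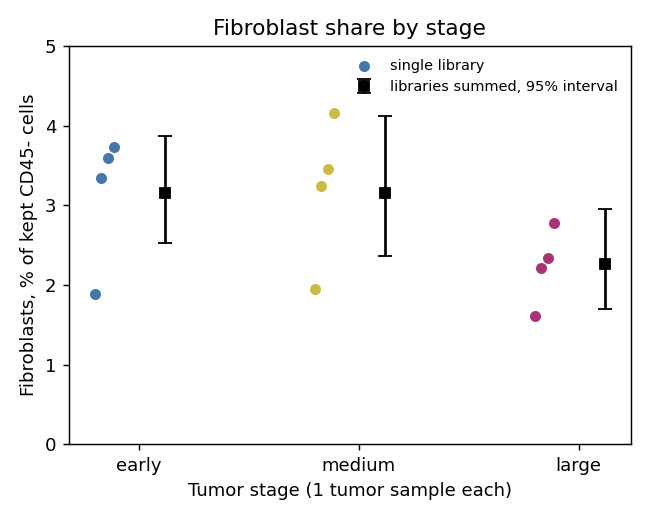
Fibroblasts as a percentage of kept CD45- cells (y axis) at each tumor stage (x axis). Circles are single libraries and squares with bars are the summed libraries with their exact 95% binomial interval. The summed shares were 3.15, 3.15 and 2.26%, and libraries of all 3 stages overlapped.

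Within the rule genes, the type I collagen genes were seen in the most cells, while Dcn had more UMIs than Col1a1 (1837 and 1043). Col1a2 (chr6:4504814-4541544, mm10), which encodes the second chain of type I collagen, was seen in 186 of 190 cells, and Col1a1 (chr11:94936224-94953042), which encodes the first chain, in 136. Dcn (chr10:97479609-97518143), the collagen-binding proteoglycan decorin, was seen in 103 and Lum (chr10:97565128-97572703), the related proteoglycan lumican, in 29. Col1a1 stood at 700, 1639 and 2124 CPM in early, medium and large fibroblasts, Col1a2 at 2250, 3486 and 3235 CPM, Dcn at 1704, 2792 and 2985 CPM and Lum at 97.9, 292 and 261 CPM. All 4 were lowest in the early stage, and since the rule set a floor on their sum these values carry no test.

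The 20 genes that most set the fibroblasts apart from the other CD45- cells were ranked by the lowest of the 3 stage ratios among genes with at least 50 UMIs. Itga11, a collagen-binding integrin, was at least 121-fold above the other cells in every stage, Tspan11 at least 117-fold, and Foxc2, a forkhead factor of mesenchyme, at least 81.6-fold. Mfap4 of elastic fibers, the carboxypeptidase gene Cpz, Myoc, the imprinted H19, Asgr1, Itih2 and Shisa3 came next, at 61.0- to 79.2-fold. Serping1 (chr2:84765387-84775444), which encodes the C1 inhibitor of the complement cascade, was the most abundant of these 20 genes, with 1254 UMIs in 140 cells and 1051, 1597 and 2714 CPM by stage against 12.5, 26.3 and 23.3 CPM in the other cells. The homeobox gene Prrx2, the organic cation exporter Slc47a1, the collagen receptor Mrc2, the retinaldehyde dehydrogenase Aldh1a2, Fam180a, the IGF-binding protein Igfbp6, the Wnt amplifier Rspo3 and Islr were among the rest of the list, at 43.7- to 52.0-fold. Other genes were more abundant but less specific. Mgp, an inhibitor of calcification, stood at 6013, 6107 and 10460 CPM, Igfbp5 at 4366, 6634 and 6855 CPM, and Ptgds, which makes prostaglandin D2, at 5624, 9186 and 3478 CPM, where the other cells also held 4880, 2502 and 1560 CPM of Ptgds. Ttr, the choroid plexus transthyretin, stood at 20640, 9289 and 11.3 CPM, from 37 fibroblasts with up to 2534 UMIs in 1 cell.

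The fibroblasts were not uniform, and 1 division ran between Slc47a1 and a set of 4 genes chosen after their values were seen. The set holds Aldh1a2 (chr9:71215789-71296243), which makes retinoic acid, and 3 transporters, Slc6a13 (chr6:121300227-121337733) for GABA and taurine, Slc13a4 (chr6:35267957-35308131) for sulfate and Slc6a20a (chr9:123634770-123678885) for proline. Slc47a1 (chr11:61343401-61378345) was seen in 94 fibroblasts and the set in 65, with 17 holding both. Of 430 UMIs of the set, 31 (7.21%) lay in the 94 cells with Slc47a1. Slc6a13 was seen in 19 fibroblasts, 0 of them with a UMI of Slc47a1 (which allows up to 15.8% of such cells to hold a UMI and sets no limit on expression), and Aldh1a2 in 27, 2 of them with Slc47a1. The plot of the set against Slc47a1 shows most cells along one axis or the other. Because these genes were picked for this pattern, it is a description and carries no test.

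**Figure D2:**
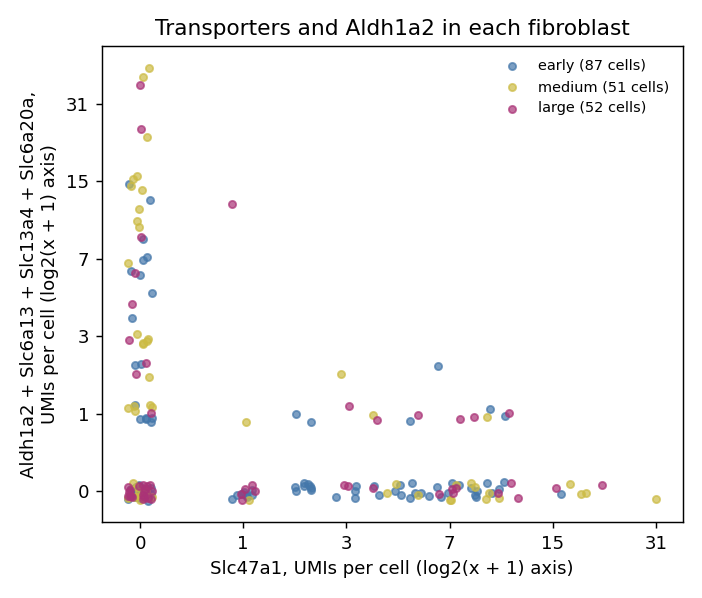
UMIs of Slc47a1 (x axis) against summed UMIs of Aldh1a2, Slc6a13, Slc13a4 and Slc6a20a (y axis) in single fibroblasts, both on log2 axes of UMIs plus 1 with points spread slightly, colored by stage. Cells lie mainly along the axes, and 17 of 190 fibroblasts held UMIs of both.

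The makeup by these genes differed between the stages. Cells with Slc47a1 alone were 44 of the early fibroblasts (50.6%), 16 of the medium (31.4%) and 17 of the large ones (32.7%). Cells with the set alone were 17 early (19.5%), 22 medium (43.1%) and 9 large (17.3%), and of the 17 early ones 10 carried markers of another cell type, against 3 of the 22 medium ones and 0 of the 9 large ones. Neither was seen in 20, 9 and 19 cells. The cells with neither had a median of 2372 UMIs against 3298 over all fibroblasts, and the part of depth in this class was not tested.

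**Figure D3:**
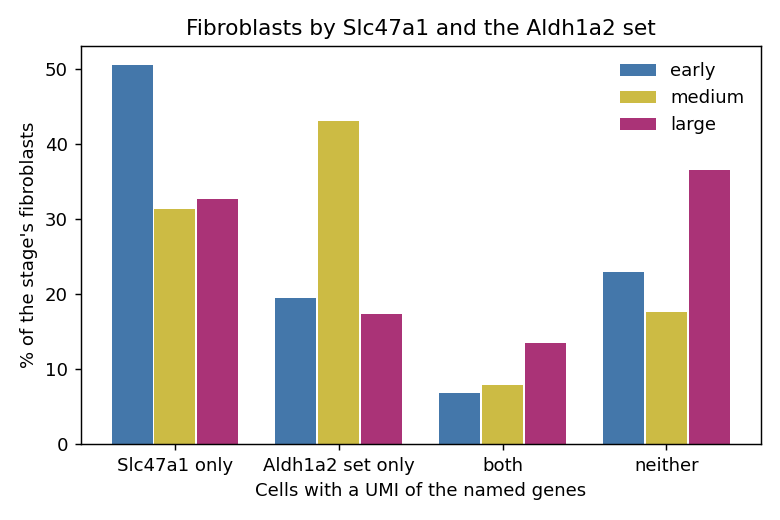
Percentage of each stage's fibroblasts (y axis) with UMIs of Slc47a1 only, of the Aldh1a2 set only, of both or of neither (x axis). Cells with Slc47a1 only were 50.6% of early fibroblasts, and cells with the set only were 43.1% of medium fibroblasts.

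Other genes differed between the groups in all 3 tumors. In cells with Slc47a1 alone, Ccn3, a secreted CCN-family matrix protein, stood at 5003, 1417 and 2343 CPM by stage, against 80.3, 62.8 and 95.7 CPM in cells with the set alone. The amino acid transporter Slc38a2 stood at 4839, 5769 and 5135 CPM against 207, 149 and 287 CPM, and the sulfate transporter Slc26a2 at 1416, 2293 and 1162 CPM against 57.4, 23.6 and 95.7 CPM. Htra3, Rfk, Slc5a6, Alpl, Tspan11, Slc26a7, Tmtc1 and Rspo3 were higher in the same group in every stage, at least 7.23-fold. The cells with the set alone were led by Vtn, the adhesion protein vitronectin, at 803, 1484 and 1849 CPM against 12.2, 0 and 0 CPM, and by Ptn, the growth factor pleiotrophin, at 1331, 4123 and 6792 CPM against 146, 234 and 356 CPM. The lipid carriers Apoe and Apod were also higher there, at least 5.71-fold and 5.70-fold. Vtn is also a mural gene, and of the 40 fibroblasts with Vtn, 33 had no UMI of the mural genes Rgs5, Kcnj8 and Abcc9. Slc6a20a of the set was also found in the mural-like cells compared below, at a mean of 1164 CPM over the 3 tumors.

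Mgp was seen in all 77 cells with Slc47a1 alone and in 23 of the 48. Fn1 was seen in 87.0% and 35.4%, and Foxc2 in 54.5% and 4.17%. Of 1969 genes compared, the 3 stage values of the groups did not overlap for 316 genes higher with Slc47a1 and 142 higher with the set, 23.3% of all.

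The stages were compared gene by gene on UMIs summed over the fibroblasts of each stage. A gene was called where the ratio was at least 2-fold and its exact 95% interval, which covers counting error only, left out 1, among genes with at least 20 UMIs over the pair. From early to medium, 602 of 5493 genes were called higher (11.0%) and 450 lower (8.19%). From early to large, 532 of 4857 were called higher (11.0%) and 394 lower (8.11%), and from medium to large 354 of 4476 higher (7.91%) and 402 lower (8.98%). TMM scaling shifted the log2 ratios by -0.10, -0.24 and -0.14 for medium over early, large over early and large over medium. With it the split became 504 higher and 546 lower for medium over early, 343 higher and 596 lower for large over early, and 252 higher and 519 lower for large over medium. The median log2 ratio over all genes was 0.08, 0.08 and 0.06. These shares are the background for each gene group below. Within run 2, the background for medium over early was 435 of 3174 genes higher and 345 lower, with a median of 0.04. No share over all genes is given beside the counts without cells holding other types' or mural markers. Those counts therefore have no background here and do not show that a list stood out.

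The fibrillar collagens measured were higher in the fibroblasts of the medium and large tumors than in early ones. Col3a1 (chr1:45311538-45349706), the fibrillar collagen that assembles with type I, stood at 392 CPM in early (libraries 222 to 602), 1707 CPM in medium (732 to 4090) and 1869 CPM in large fibroblasts (1335 to 2723). No medium or large library fell within the early range. For this gene and those below, the share of all genes whose libraries separate in this way is not given. Libraries of a stage repeat the same tumor sample, so such a separation does not tell stage from animal. The log2 ratio was 2.12 for medium over early (95% interval 1.84 to 2.41) and 2.25 for large over early (1.96 to 2.56), and 1.09 within run 2, the only run with at least 20 fibroblasts in both the early and medium stage. Of the fibrillar collagens measured besides type I, 3 of 3 were higher in medium and 4 of 4 in large than in early fibroblasts, with medians of 1.39 and 2.21 on the log2 scale. Without the 28 cells that carried markers of other types, 2 of 3 were higher in each, with medians of 1.32 and 1.20. Of the other interstitial collagens 4 of 10 were higher in each, with medians of 0.74 and 0.38, and 2 of 7 within run 2, with a median of 0.36. Col3a1 was seen in 44.1% of fibroblasts with a rule sum of 4 to 9, 69.3% at 10 to 31 and 89.4% at 32 or more. Early fibroblasts had the lowest median rule sum, and the part of this in the stage ratios of matrix genes was not tested.

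Basement membrane genes moved in the same direction. Col4a1 and Col4a2, the 2 chains of the common type IV collagen, stood at 104 and 92.0 CPM in early, 478 and 345 CPM in medium and 850 and 516 CPM in large fibroblasts. For Col4a1 the libraries spanned 27.3 to 138 CPM, 144 to 1128 CPM and 445 to 1108 CPM, so the early libraries lay below all others. Its log2 ratios were 2.19 (1.65 to 2.79) for medium over early and 3.02 (2.49 to 3.61) for large over early, and 0.94 within run 2. Of the basement membrane list, 10 of 15 were higher in medium, among them the laminin chains Lama2, Lama4 and Lamb1, nidogen (Nid1) and perlecan (Hspg2), and 7 of 13 were higher in large fibroblasts, with medians of 1.59 and 1.81. Within run 2 only 1 of 7 was called higher, with a median of 0.68, against 435 of 3174 over all genes, with a median of 0.04. Without the cells with other types' markers the counts were 10 of 12 and 4 of 10, with medians of 1.93 and 1.07, and without those with mural markers 6 of 11 and 3 of 10, with medians of 1.13 and 0.84. Leaving out run 1 lowered the medium over early median to 0.94 and leaving out run 3 the large over early one to 1.08. Col4a1 stood at 60.8, 29.2 and 75.0 CPM in cells with Slc47a1 alone, at 115, 927 and 1020 CPM in cells with the Aldh1a2 set alone and at 238, 170 and 1494 CPM in cells with neither. From medium to large, the median of the basement membrane list was 0.55, and it was -0.20 without the cells with other types' markers.

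Col4a1 and Col4a2 lie head to head on chromosome 8, with annotated starts 21 bases apart on opposite strands, so their start regions are in part the same DNA. The window around the Col4a2 start is shown because both genes moved together here. It covers chr8:11312555-11312854 of GRCm38.p6 (RefSeq, plus strand), from 250 bases before to 50 after the start, and the capitals mark the 78 bases shared with the same window of Col4a1.
Col4a2 start window: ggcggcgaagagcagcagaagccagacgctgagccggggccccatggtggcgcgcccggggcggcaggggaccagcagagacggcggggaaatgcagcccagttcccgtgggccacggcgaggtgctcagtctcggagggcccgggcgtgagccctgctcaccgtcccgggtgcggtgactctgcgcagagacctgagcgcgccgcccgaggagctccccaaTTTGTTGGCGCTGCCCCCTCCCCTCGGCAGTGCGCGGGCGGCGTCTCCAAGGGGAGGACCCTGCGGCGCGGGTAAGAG

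Elastic fiber and matrix glycoprotein genes stood out mainly in the large tumor. Fn1, fibronectin, stood at 671 CPM in early (516 to 909 over libraries), 1206 CPM in medium (492 to 1587) and 2187 CPM in large fibroblasts (1796 to 2501), with log2 ratios of 0.85 (0.60 to 1.10) and 1.70 (1.46 to 1.95) over early. Fbln1, the matrix glycoprotein fibulin-1, stood at 347, 482 and 1110 CPM. In this list 4 of 24 genes were higher in medium, and 13 of 23 in large fibroblasts, with medians of 0.58 and 1.27. The first of these was 0.04 without run 2. Without the cells with other types' markers, 7 of 21 were higher in large, with a median of 0.60. Cross-linking genes followed: Lox, lysyl oxidase, stood at 104, 315 and 380 CPM with no overlap between the early libraries and the others, and 4 of 17 and 8 of 16 genes of collagen processing were higher in medium and large, with medians of 0.43 and 1.00, the first of which was 0.10 without run 1 and 1.02 without run 2. Among proteases and their inhibitors 3 of 13 and 7 of 15 were higher, including the gelatinase gene Mmp2 and its inhibitor family member Timp1 in both.

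**Figure D4:**
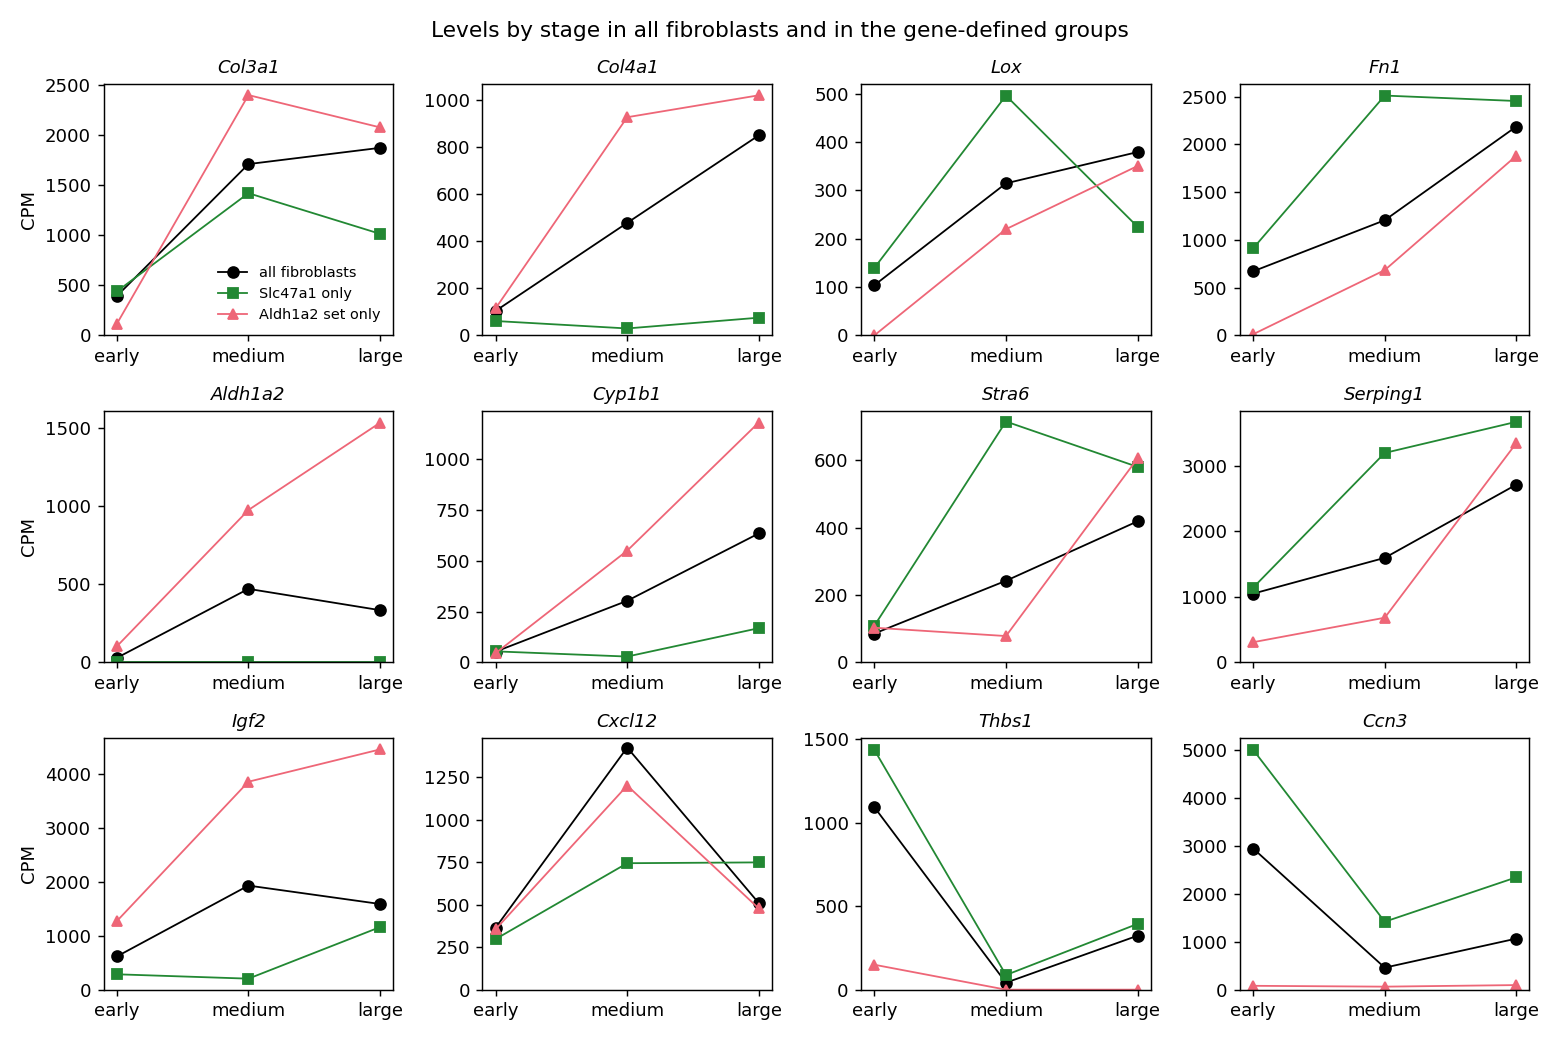
Levels in CPM (y axes, each on its own scale from 0) of 12 genes by tumor stage (x axes), for all fibroblasts (black circles), cells with Slc47a1 only (green squares) and cells with the Aldh1a2 set only (red triangles), each summed over the stage with no error bar. Col4a1 stayed at or under 75.0 CPM in cells with Slc47a1 only and reached 1020 CPM in cells with the set only, and over all fibroblasts Thbs1 and Ccn3 were highest in the early stage.

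Genes of retinoid handling were also higher in the later stages. Aldh1a2 stood at 29.7 CPM in early (10.1 to 48.9 over libraries), 470 CPM in medium (116 to 778) and 334 CPM in large fibroblasts (148 to 696). The early libraries again lay below all others, and the log2 ratios were 3.92 (3.06 to 5.08) and 3.44 (2.51 to 4.63). Rdh10, which makes the retinaldehyde that Aldh1a2 uses, stood at 2.97, 118 and 142 CPM, from 12 cells in all. Cyp1b1, an oxidase that can also form retinoids, stood at 53.4, 303 and 634 CPM, and Stra6, a receptor that takes up retinol, at 86.1, 243 and 419 CPM. Of the retinoid list, 7 of 10 genes were higher in medium and 5 of 8 in large than in early fibroblasts, with medians of 1.34 and 1.71. Within run 2, 5 of 8 were higher, with a median of 1.83, and without the cells with other types' markers 7 of 10 and 6 of 8. Without run 1 the median for large over early was 0.40, and without fibroblasts holding mural markers 0.95. Stra6 stood at 109, 716 and 581 CPM within cells with Slc47a1 alone.

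Secreted signals moved unevenly. Cxcl12, a chemokine that attracts leukocytes, stood at 365 CPM in early, 1426 CPM in medium and 510 CPM in large fibroblasts, with a log2 ratio of 1.96 (1.67 to 2.27) for medium over early and 1.78 within run 2. Igf2, a growth factor, stood at 617, 1934 and 1592 CPM, with a log2 ratio of 1.65 (1.41 to 1.89) for medium over early that had the opposite sign within run 2 (-0.43). Igf2 lay mainly in cells with the Aldh1a2 set alone, at 1274, 3864 and 4464 CPM, against 286, 204 and 1162 CPM in cells with Slc47a1 alone. Serping1 was higher in large than in early fibroblasts by 1.37 on the log2 scale (1.17 to 1.57), and within cells with Slc47a1 alone it stood at 1143, 3198 and 3673 CPM. Of the chemokine and cytokine list, 5 of 7 were higher and 1 lower in medium, and 3 of 7 higher in large fibroblasts.

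Some class I antigen presentation genes were highest in the medium tumor. H2-D1, a class I heavy chain, stood at 543, 1346 and 510 CPM and H2-K1 at 430, 1005 and 289 CPM. Cd74, the invariant chain of class II, went the other way, at 264, 91.0 and 244 CPM. Cd74 is also a gene of the microglia or macrophage list, and the part of such cells in its values was not tested. The other CD45- cells had the same order for H2-D1, with 359, 2138 and 145 CPM. In the class I list 4 of 17 genes were higher in medium than in early fibroblasts, with a median of 0.59, and 5 of 14 were lower in large than in medium, with a median of -0.54. Within run 2, 7 of 13 were higher in medium than in early fibroblasts, with a median of 1.12. On leaving out 1 library or run the first median ranged from 0.22, without 1 early library of run 2, to 0.78, and the second from -1.02, without run 1, to -0.32, without 1 large library of run 2. Without the cells with other types' markers 0 of 16 were called higher in medium, with a median of 0.36, and 5 of 14 were still called lower in large than in medium.

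Several genes were highest in early fibroblasts. Thbs1, the matricellular protein thrombospondin-1, stood at 1092 CPM in early (616 to 2151 over libraries), 41.7 CPM in medium (0 to 103) and 323 CPM in large fibroblasts (127 to 474), with log2 ratios of -4.65 (-5.73 to -3.85) and -1.75 (-2.19 to -1.35), and -4.10 within run 2. Ccn3 stood at 2944, 459 and 1065 CPM, with -2.68 for medium over early and -2.58 within run 2. It was also lower within cells with Slc47a1 alone, the group that holds most of it. Penk, which encodes enkephalin precursors, stood at 703, 125 and 232 CPM. Ddit3, a stress response factor, stood at 125 CPM in early fibroblasts and was at 0 in medium ones, at least 10.9-fold lower. Genes of hypoxia and glycolysis were lower in large than in early fibroblasts in 5 of 20, with a median of -0.65, among them Vegfa, Slc2a1 and Pgk1. Median mitochondrial UMIs also differed, at 10.0%, 7.96% and 4.88% by stage, and their part in these differences was not tested.

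Some of the widest ratios rested on few cells. Postn, the matricellular protein periostin, stood at 5.94, 83.4 and 935 CPM, from 8 large cells, and at 8.33, 111 and 80.4 CPM without the cells with other types' markers. Collagen-positive cells with a transgene UMI, which the rule keeps out, held 421 CPM of Postn in the medium and 972 CPM in the large stage. Igfbp3, an IGF-binding protein, was at 0 in early fibroblasts and at 129 and 430 CPM in the later stages, at least 14.5- and 48.4-fold higher, and at 838 and 778 CPM in the transgene cells of those stages. Tnc, tenascin-C, was likewise at 0, 34.1 and 278 CPM, at least 31.2-fold higher in large than in early fibroblasts. Of the 10 genes with the highest ratio of medium over early by the interval's bound, 7 came mostly from 1 cell, among them Npy, Stmn3, Cck, Meg3, Nrgn and Vsnl1, which are known from neurons. Nnat, Igfbp3 and Prok2 were the others. The 10 lowest were Rgs5, Thbs1, Ddit3, Acta2, Ccn3, Dapl1, Gnai3, Kcnj13, Serpina1b and Penk, of which Rgs5 and Acta2 mark mural and smooth muscle cells. From early to large, Mmp3, Tnfrsf21, Usp27x, Rdh10, Col6a3, Cyp1b1, Wnt9a and Thy1 were highest beside Postn and Igfbp3, and Sostdc1, F5, Folr1, Prlr, Crim1, Clu, Klk6, Dapl1, Slc39a12 and Ociad2 lowest, a list that holds choroid plexus genes such as Folr1 and Sostdc1. From medium to large the lowest were again genes seen in few cells, with Stmn3, Nrgn, Cck, Snap25, Pclo, Nsg2 and Ndrg4 among neuronal ones, beside Araf, Rap1gap2 and Gchfr. The highest were Rgs5, Postn, Sos2, Usp27x, Acta2, Thbs1, Smarca5, Xpr1, Mylk and Rara.

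The fibroblasts were also compared with endothelial cells of the same tumors. Endothelial-like cells (169, 134 and 74 by stage) had at least 4 UMIs of Cldn5, Flt1, Cdh5 and Pecam1 at most 2 of the rule genes and no transgene UMI, and UMIs were summed per tumor and cell group and fitted with edgeR's quasi-likelihood test with the tumor as a block (n = 3 tumors). Both groups were gated on the markers of the types compared, so the adjusted p-values measure how well a difference repeats over 3 tumors, and the gate genes were left out of the counts. Of 5096 genes, 506 were higher in fibroblasts (9.93%) and 570 lower (11.2%) at a Benjamini-Hochberg adjusted p of 0.05. Igfbp5 (chr1:72857932-72874884), which binds insulin-like growth factors, had 4430 UMIs in fibroblasts and 8 in endothelial-like cells. Serping1 had 1254 and 7 UMIs. Slc4a10, a bicarbonate transporter, and Slc47a1 were at 0 in endothelial-like cells, at least 202-fold and 170-fold lower than in fibroblasts. Islr, Nme7, Efemp1, Atp1b1, Fbln1 and Fstl1, the other leading genes by adjusted p, had 420 to 707 UMIs in fibroblasts and 1 to 24 in endothelial-like cells. In the other direction the leading genes were Kdr, Ptprb, Slco1a4, Spock2, Slc7a5, Adgrf5, Ly6c1 and Ly6c2 of endothelium and the hemoglobins Hba-a1 and Hba-a2, with 0 to 29 UMIs in fibroblasts and 447 to 2339 in endothelial-like cells. Genes near 0 in 1 of the groups entered the fit through the other alone, so these genes, and lists rich in them, are given by their UMIs. Col6a2, a chain of type VI collagen, had 530 UMIs in fibroblasts and 3 in endothelial-like cells, the mesenchymal factor Foxd1 238 and 13, and the retinoid oxidase gene Cyp1b1 210 and 14. The forkhead gene Foxf2 had 2 and 250 UMIs, and Aldh1a1, which makes retinoic acid, 38 and 100. Of the endothelial-like cells, 50, 35 and 21 by stage also held a UMI of the mural genes Rgs5, Kcnj8 or Abcc9, whose part in the next values was not tested. Among basement membrane genes, Col4a2 was lower in fibroblasts by a log2 difference of -0.93 ± 0.27 (SE, 213 and 351 UMIs, edgeR adjusted p = 0.028). Col4a1, with -0.79 ± 0.34 (SE, 311 and 437 UMIs), did not pass (edgeR adjusted p = 0.151). Col18a1 had 100 and 24 UMIs, Lamb1 91 and 31, Lama2 82 and 7, and Lama5 7 and 47. The mouse Egfr, the receptor whose human form drives these tumors, had 120 UMIs in fibroblasts and 1 in endothelial-like cells. Against mural-like cells it had 111 and 6 UMIs, with means of 273 and 149 CPM over the 3 tumors. Its log2 difference of 1.52 ± 0.97 (SE) did not pass the edgeR test (adjusted p = 0.343).

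Against mural-like cells, which wrap small vessels, the basement membrane genes Col4a1, Col4a2, Lama2, Lamc1 and Nid1 were lower in fibroblasts with at most 1 UMI of 4 mural genes. The comparison used 73, 36 and 43 fibroblasts with at most 1 UMI of Rgs5, Kcnj8, Abcc9 and Vtn, and 38, 20 and 11 mural-like cells with at least 4 and the same limits on rule genes, endothelial genes and transgenes. Vtn is 1 of these 4 genes, so many cells with the Aldh1a2 set were left out. The fibroblasts compared held 293227, 205826 and 138810 UMIs by stage and the mural-like cells 61418, 30291 and 16938. UMI counts of the groups are therefore not on the same scale. Of 1999 genes, 191 were higher in fibroblasts (9.55%) and 193 lower (9.65%) in the edgeR fit. Col4a1 was lower in fibroblasts by a log2 difference of -2.76 ± 0.39 (SE, 148 UMIs in each group, edgeR adjusted p = 0.0004). Lamc3 had 12 and 23 UMIs (means of 33.2 and 343 CPM over the tumors), and Slc6a20a 20 and 82 (51.0 and 1164 CPM). Ccn3 and Slc47a1 were at 0 in mural-like cells, at least 73.1-fold and 33.0-fold lower than in fibroblasts. Igfbp5, Slc38a2, Slc26a2, Nme7, Tspan13, Atp1b1 and Fxyd5, among the leading genes by adjusted p, had 419 to 3345 UMIs in fibroblasts and 1 to 12 in mural-like cells, and entered the fit through the fibroblasts alone. In the other direction the leading genes included Rgs4, Ndufa4l2, Myl9, Atp13a5, Notch3, Sparcl1, Casq2 and the heat shock genes Hspa1a and Hspa1b, of which Rgs4, Ndufa4l2, Atp13a5, Notch3 and Casq2 had at most 2 UMIs in fibroblasts. Pdgfra, a receptor of fibroblasts, had 88 UMIs in fibroblasts and 0 in mural-like cells. Pdgfrb, a receptor of mural cells, had 45 and 133 UMIs, with means of 119 and 1867 CPM over the tumors. The mural comparison depended on the large tumor, which had 11 mural-like cells: without it 37 genes were higher and 66 lower.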

How the data were processed

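Single-cell RNA-seq was done on CD45- and CD45+ sorts of 3 tumor stages, and only the 12 CD45- libraries were used; the 11720 CD45+ columns were left out. Per the labels and the study's methods, the authors mapped reads with RapMap in bcbio-nextgen to the mouse GRCm38 transcriptome (labelled mm10) and deposited raw UMI counts per gene and cell. Stage and sort came from the other deposited table, the authors' annotation of each cell's library. Ambient-RNA and doublet removal were described, but whether they preceded the deposited counts is not given in the sources used here; Scrublet in scanpy 1.11.5 called 80 of 6676 kept cells, 1 of them a fibroblast, and none were removed.

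Kept CD45- libraries held 1184300 to 3846486 UMIs, and their fibroblasts 31530 to 143246. Counts were summed per stage, scaled to counts per stage total (CPM), and compared as log2 ratios with a prior of 0.5 counts and an exact conditional 95% interval. A gene at 0 was bounded with a floor of 3 counts over the group. Cell groups were compared with edgeR 4.0.16 in R 4.3.3 (TMM, filterByExpr, robust quasi-likelihood, Benjamini-Hochberg), after the scripts were tested on simulated data, where 79.5% and 76.5% of 200 genes changed 4-fold were recovered against endothelial-like and mural-like cells. Both sums of a pair come from the same tumor, which is why the tumor was a block; deviations correlated at 0.24, -0.002 and 0.14 over 5104 genes.

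The members and gene lists were chosen with earlier results of these data known. Named genes were the rule genes, the 20 genes with the highest lowest-stage ratio to other cells, the 10 highest and 10 lowest per stage pair and per edgeR comparison by the interval bound or the adjusted p, and members of the lists; the Slc47a1 and Aldh1a2 set was chosen after its values were seen. Some items that the rule names are not reported here. Alternatives covered scaling, filters, gates, thinning and leaving out libraries, runs and tumors.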

Additional observations from a re-analysis of the deposited data

Results flagged for a closer look

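Marker sums in the fibroblasts of single libraries stood apart from the other 3 libraries of their stage in 8 of the 42 groups of 4 libraries compared, which also included the fibroblast shares. For continuous values chance sets apart about 1 in 20, a rate that does not hold for the T cell and both neuron values, where the other 3 libraries were at 0. In the early stage, 1 library each held 10560 CPM of oligodendrocyte markers, 7602 CPM of Schwann or olfactory ensheathing markers, 51.6 CPM of neuron markers and 14.0 CPM of T cell markers. In the medium stage, 1 library held 81470 CPM of choroid plexus markers, 1 held 1123 CPM of neuron markers and 1 was at 0.0 CPM of red blood cell markers. In the large stage, 1 library held 601.5 CPM of smooth muscle markers. The neuron value comes with the medium genes Npy, Stmn3, Cck, Meg3, Nrgn and Vsnl1, which lay mostly in 1 cell.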

How the results depend on the processing

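The share of fibroblasts with a rule sum of at least 10 was 1.78% early, 2.41% medium and 1.48% large. Thinned to 1000 UMIs per cell it was 1.79%, 2.35% and 1.86%, and without fibroblasts holding mural markers it was 2.23% medium. Leaving out 1 run gave 2.85 to 3.53% early, 2.89 to 3.56% medium and 2.09 to 2.51% large.

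Counts of genes by stage scaled with what was kept. With a minimum of 5 UMIs per gene they were 1226 higher and 756 lower (medium over early), 1027 and 596 (large over early), and 728 and 721 (large over medium). Thinned, they were 71 and 74, 89 and 61, and 44 and 49. In Slc47a1 cells alone they were 234 and 187, 156 and 140, and 91 and 114. In cells with the Aldh1a2 set alone they were 377 and 261, 209 and 196, and 164 and 187. These last pairs, and the counts without cells carrying other types' markers (395 higher for medium over early, 255 lower for large over early, 254 lower for large over medium), were chosen after the data were seen. The number of genes compared is not given beside them, so they cannot be read as shares. A rule sum of at least 10 gave 310 higher and 236 lower for large over early, and TMM scaling 343 and 596. Leaving out a library or run gave 292 to 637 higher and 254 to 458 lower for medium over early, 359 to 532 and 225 to 410 for large over early, and 213 to 354 and 165 to 420 for large over medium. The lowest values came without run 2 (292 and 254; 213 and 165), and 225 without 1 early library of run 2.

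Against endothelial-like cells, leaving out 1 tumor gave 339 to 431 higher and 385 to 467 lower, and against mural-like cells 37 to 148 and 66 to 150. Without the block of the paired tumor, 464 were higher and 542 lower, and 196 and 211. Testing every gene with at least 1 count gave 333 higher and 132 lower against mural-like cells, with a median log2 difference of 1.28. Medians for large over medium changed sign for the basement membrane list (0.55, but -0.19 thinned, -0.16 without run 2 and -0.20 without other types' markers), fibrillar collagens (0.85, -0.37 without those markers), cross-linking (0.55, -0.04 without run 2), matrix glycoproteins (0.66, -0.11 in cells with the Aldh1a2 set alone) and, near 0, retinoid genes. Class I medians changed sign for large over early (-0.35, 0.01 without 1 early library) and, in Slc47a1 cells alone, medium over early (0.59, -0.07). The other list medians compared kept their sign; causes were not tested. Single tumors per stage and sums of 51 to 87 cells limit what low counts can show.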

Other observations

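Growth factor ligands of the fibroblasts did not move together: 2 of 17 were higher and 4 lower in medium than in early fibroblasts, and 3 of 18 higher and 3 lower in large than in early ones. Bmp4, a bone morphogenetic protein, stood at 341, 171 and 102 CPM in early, medium and large fibroblasts. Wnt5a, a Wnt ligand, stood at 44.5, 49.3 and 136 CPM, and Vegfa, which acts on endothelium, at 53.4, 19.0 and 11.3 CPM. Of the mesenchymal transcription factors, 1 of 22 was higher and 2 were lower in medium than in early fibroblasts, and 3 of 22 higher and 1 lower in large ones. The interferon list was split, with 5 of 21 higher and 2 lower in medium and 3 of 21 higher and 3 lower in large fibroblasts. Igtp, an interferon-induced GTPase, stood at 62.3, 266 and 147 CPM and Ifit1, an interferon-induced RNA-binding protein, at 104, 15.2 and 45.3 CPM.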
